A study of Mus musculus with 6 samples.

Results

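TRiC (also called CCT) is the cytosolic chaperonin of eukaryotic cells, and its 8 subunits are encoded by the genes Tcp1, Cct2, Cct3, Cct4, Cct5, Cct6a, Cct7 and Cct8. They were found by their exact symbols, and each had 1 row among the 18908 genes of the table. RNA was sequenced from 6 mouse libraries, 3 labelled control shRNA with genotype WT and 3 labelled as a VprBP1 knockdown by shRNA, a hairpin RNA processed by the cell to silence a matching transcript. All are labelled bone marrow-derived macrophages (BMDM), primary cells grown out of marrow precursors, and the study's title concerns VprBP in osteoclast differentiation. The labels give no time, animal age or hairpin, and do not state whether the libraries of a group are separate cultures or animals. The p-values therefore reflect library-to-library spread alone, possibly technical.

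The labels were checked against the data before the subunits were compared. The target Dcaf1 (VprBP, a substrate receptor of a ubiquitin ligase) was at 42.2, 43.5 and 40.7 CPM (the usual unit of counts scaled to a common library size) under the control label and 36.0, 34.6 and 36.8 CPM under the VprBP label. The groups did not overlap, but the log2 difference was only -0.24 (SE 0.071, edgeR adjusted p = 0.00625), and 81.0% of the tested genes changed by more. With scaling by library size alone it was -0.12 (edgeR adjusted p = 0.137). Of 15 macrophage markers, 10 had no row, among them Csf1r, Adgre1, Itgam and Spi1, and the list summed to 37.2 to 40.2 CPM under the control label and 16.9 to 18.7 CPM under the VprBP label. Cd68 alone made the fall of this sum (31.6 and 1.01 CPM), while Mertk and Lyz2 were called higher. All 8 pigment cell markers had a row, and they summed to 21161 ± 210 and 19431 ± 291 CPM (SD, n = 3 each). Within that sum Slc45a2, Pmel and Mlana fell 2.68-fold to 3.81-fold, whereas Tyr, Mitf and Dct rose 1.504-fold to 3.79-fold. Stromal markers, 6 of 7 with a row, summed to 49.2 ± 1.60 and 392 ± 26.4 CPM. Neutrophil, lymphocyte, endothelial and erythroid markers summed to a mean of at most 1.68 CPM in either group. The share of counts from mitochondrial genes was 8.65 to 9.48% in the control-labelled and 4.89 to 5.56% in the VprBP-labelled libraries. The part of these differences in the results on the subunits was not tested. Under both labels the pigment cell markers far exceeded the macrophage markers, which goes against the cell type that the labels give. What cells the libraries hold was not settled here. For these reasons the groups are named by their labels, control-labelled and VprBP-labelled, and the results are not given as those of macrophages. Total counts ran from 16839445 to 21838875, and each subunit had between 2332 and 8881 counts in every library.

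TRiC stacks 2 rings of 8 subunits back to back, with 1 copy of each subunit per ring in a fixed order, and closes over a bound protein in a cycle driven by ATP. Tubulin and actin are its best-known obligate clients, and many WD40 repeat proteins, cell cycle regulators and signalling proteins also fold in it. The cochaperone prefoldin hands unfolded actin and tubulin to it, and phosducin-like proteins bind it during its cycle. Since every subunit fills its own place in the ring, the balance of the transcripts is of interest as well as their level. In ring order, Cct3 sits between Tcp1 and Cct6a, followed by Cct8, Cct7, Cct5, Cct2 and Cct4.

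The region just upstream of each start site was taken from RefSeq on GRCm38.p6, which held a 250-base window for 7 of the 8 subunits, and not for Cct4. Cct2 and Cct5 had 2 windows each there, and only the first listed of each gene was used. The other window of Cct2 and of Cct5 was not searched. The windows of 4 subunits are shown here, 5′ to 3′ on the strand of the gene and ending at the base before the start site. Cct2 is the subunit that rose most, Cct3 the one that fell most, Cct5 the one with a heat shock element, and Cct7 the most abundant in the control-labelled libraries. Capitals mark every match, on either strand, to the motifs listed after them. They cover chr10:117063853-117064102 (minus strand) for Cct2, chr3:88296885-88297134 (plus) for Cct3, chr15:31601847-31602096 (minus) for Cct5 and chr6:85451255-85451504 (plus) for Cct7.
Cct2: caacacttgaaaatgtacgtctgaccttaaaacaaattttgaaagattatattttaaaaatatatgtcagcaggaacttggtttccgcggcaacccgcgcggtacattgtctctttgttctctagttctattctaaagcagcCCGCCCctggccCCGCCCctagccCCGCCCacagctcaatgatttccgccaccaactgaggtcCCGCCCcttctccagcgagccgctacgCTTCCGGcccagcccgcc
Cct3: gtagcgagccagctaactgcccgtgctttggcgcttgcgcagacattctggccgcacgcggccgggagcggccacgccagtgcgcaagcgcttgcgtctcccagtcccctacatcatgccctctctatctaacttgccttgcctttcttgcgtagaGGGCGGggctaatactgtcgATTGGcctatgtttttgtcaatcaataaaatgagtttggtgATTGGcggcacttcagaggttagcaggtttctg
Cct5: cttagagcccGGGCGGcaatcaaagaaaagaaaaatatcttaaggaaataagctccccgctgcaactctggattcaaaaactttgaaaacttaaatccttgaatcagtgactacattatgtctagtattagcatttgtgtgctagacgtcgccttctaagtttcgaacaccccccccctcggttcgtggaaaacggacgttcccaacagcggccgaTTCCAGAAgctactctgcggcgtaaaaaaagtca
Cct7: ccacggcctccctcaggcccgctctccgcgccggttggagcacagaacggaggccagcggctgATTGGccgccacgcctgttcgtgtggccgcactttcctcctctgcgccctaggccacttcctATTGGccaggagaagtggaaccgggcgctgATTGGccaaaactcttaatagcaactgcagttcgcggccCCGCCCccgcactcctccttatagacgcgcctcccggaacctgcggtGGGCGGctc

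Motifs were searched on both strands, and 8 were used. GC boxes (GGGCGG), the sites that Sp1 is known for, were present in 7 of 7 subunit windows and in 32.9% of all 27025 windows of this length. All these windows are the first listed of each gene. The heat shock element TTCNNGAA is a pair of the inverted repeats that heat shock factors bind. Of the subunit windows searched, only that of Cct5 held it, at bases 34 to 27 before the start, against 7.10% of all windows. Its other arrangement, GAANNTTC, was in no subunit window and in 6.78% of all. The CCAAT box (CCAAT) was in Tcp1, Cct3, Cct6a and Cct7, that is 4 of 7 windows against 34.5% of all. Cct2 and Cct8 held the ETS-type site CCGGAAG, which 7.05% of all windows hold. The E-box CACGTG (6.05% of all windows), the cAMP response element TGACGTCA (1.62%) and the NRF1 site (0.781%) were in none of the 7. The median GC content of all windows was 52.0%, compared with 52.8% in Cct2, 56.0% in Cct3, 45.2% in Cct5 and 66.4% in Cct7. A match is a run of letters only, and no binding was measured.

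The subunits did not move together between the labels. Cct3 fell 1.71-fold in the VprBP-labelled libraries, while the other 7 differed by between -0.24 and 0.28 on the log2 scale. Tcp1 and Cct2 rose, Cct5, Cct6a and Cct7 fell less than Cct3, and Cct4 and Cct8 did not pass the test. In all, 2 subunits were called higher, where 37.9% of tested genes were, and 4 lower, where 37.0% of tested genes were. Together 6 of 8 were called, the same share as the 75.0% of all 14641 tested genes, so the count does not set the subunits apart. Their sizes were smaller: the median absolute log2 difference was 0.18 over the 8 subunits, 0.69 over all tested genes and 0.54 over the 935 tested genes in the subunits' range of mean CPM, of which 88.8% were called. The median signed difference was -0.07 for the subunits and -0.01 for all tested genes. Scaling by library size alone moved the median of all genes by 0.12 and turned that of the subunits to 0.05, so subunit differences of about this size can change call or sign with the scaling.

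Summed over the 8 genes, the transcripts reached 1897, 1880 and 1879 CPM with the control label and 1785, 1793 and 1832 CPM with the VprBP label. With the VprBP label the mean sum came to 95.6% of that with the control label. In bulk RNA, fewer cells of a type and less RNA per cell cannot be told apart.

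**Figure D1:**
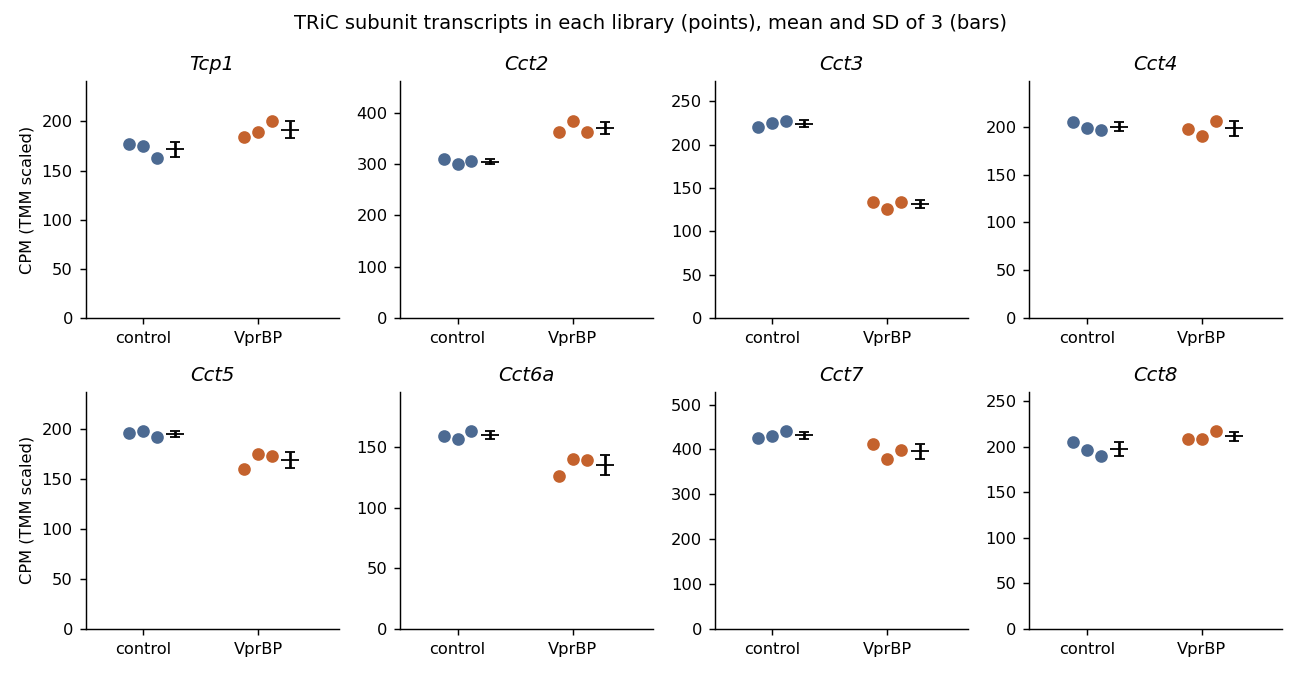
Level of each TRiC subunit in CPM (vertical axes, 1 panel per subunit) in 3 libraries per label; points are libraries and bars are mean ± SD. Cct3 drops from between 219.7 and 228 CPM to between 126 and 134 CPM, and only Cct4 shows groups that overlap.

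The subunits of the ring are known to differ in how readily they bind ATP, with Tcp1, Cct4, Cct2 and Cct5 on the side of higher affinity and Cct3, Cct6a, Cct8 and Cct7 on the other. They are described in that order, a grouping chosen after the values were seen. Tcp1, the alpha subunit (ENSMUSG00000068039.13; GRCm38 chromosome 17, 12915701 to 12925067, plus strand), was at 176.5, 174.7 and 163.0 CPM with the control label and at 183.8, 189.4 and 200.8 CPM with the VprBP label. Every VprBP-labelled library lay above every control-labelled one. It rose 1.12-fold (log2 difference 0.16, SE 0.0503, edgeR adjusted p = 0.00868), and 87.4% of tested genes changed by more. Without control-labelled library 3, its lowest, the log2 difference was 0.11 and was no longer called (edgeR adjusted p = 0.0728). Cct4, the delta subunit (ENSMUSG00000007739.10; chromosome 11, 22990519 to 23003780, plus strand), was at 205, 199 and 197 CPM against 198, 190.5 and 206.5 CPM. Its groups overlapped, and the log2 difference of -0.01 had a 95% interval of -0.11 to 0.09. It took the opposite sign under 4 of 15 alternative settings, and reached 0.10 (edgeR adjusted p = 0.0555) with scaling by library size alone.

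Cct2, the beta subunit (ENSMUSG00000034024.8; chromosome 10, 117051001 to 117063814, minus strand), was at 309, 299.6 and 306 CPM with the control label, against 363, 385 and 363 CPM. The groups were well apart. It rose 1.21-fold (log2 difference 0.28, SE 0.0422, edgeR adjusted p = 9.7e-06), and the log2 difference stayed between 0.26 and 0.40 under 15 alternative settings, all of them called. Cct5, the epsilon subunit (ENSMUSG00000022234.15; chromosome 15, 31590800 to 31601804, minus strand), was at 196, 198 and 192 CPM against 160.5, 175 and 174 CPM. Each VprBP-labelled library lay below all control-labelled ones. It fell 1.15-fold (log2 difference -0.20, SE 0.048, edgeR adjusted p = 0.000922). With scaling by library size alone the log2 difference was -0.09 and was not called (edgeR adjusted p = 0.106).

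Cct3, the gamma subunit (ENSMUSG00000001416.13; chromosome 3, 88297116 to 88321767, plus strand), was at 219.7, 225 and 228 CPM with the control label. With the VprBP label it was at 133, 126 and 134 CPM. The gap between the groups was wider than the range within either. It averaged 224 ± 4.04 CPM and 131 ± 4.41 CPM (SD, n = 3 each), and the log2 difference was -0.77 (SE 0.0467, 95% interval -0.87 to -0.67, edgeR adjusted p = 4.66e-11). Even so, 45.1% of tested genes changed by more. Under 15 alternative settings it lay between -0.80 and -0.66 and was called each time.

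Cct6a, the zeta subunit (ENSMUSG00000029447.11; chromosome 5, 129786998 to 129846371, plus strand), was at 159, 157 and 163 CPM against 126, 140.5 and 139 CPM. The groups did not overlap. It fell 1.18-fold (log2 difference -0.24, SE 0.0521, edgeR adjusted p = 0.000441) and was called under all 15 alternative settings. Cct8, the theta subunit (ENSMUSG00000025613.13; chromosome 16, 87483326 to 87495873, minus strand), was at 206, 197 and 190 CPM against 209, 208 and 217 CPM. Its groups did not overlap, yet the log2 difference of 0.10 did not pass the test (SE 0.0466, edgeR adjusted p = 0.0658). It did pass under 4 of the 15 alternatives, with a log2 difference of 0.21 (edgeR adjusted p = 0.000446) under scaling by library size alone, and also without control-labelled library 1 (edgeR adjusted p = 0.0479), without VprBP-labelled library 1 (0.0442) and with no filter (0.0475). Cct7, the eta subunit (ENSMUSG00000030007.8; chromosome 6, 85451514 to 85468475, plus strand), was at 425, 431 and 441 CPM against 411, 378 and 398 CPM. All 3 VprBP-labelled libraries were the lower ones. It fell 1.09-fold (log2 difference -0.13, SE 0.0426, edgeR adjusted p = 0.0123). The call was lost without VprBP-labelled library 2 (log2 difference -0.09, edgeR adjusted p = 0.0913) and with scaling by library size alone (-0.01, edgeR adjusted p = 0.827).

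Counted over both sides, 7 of the 8 subunits had groups that did not overlap, as did 77.2% of tested genes. The only one that overlapped was Cct4.

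**Figure D2:**
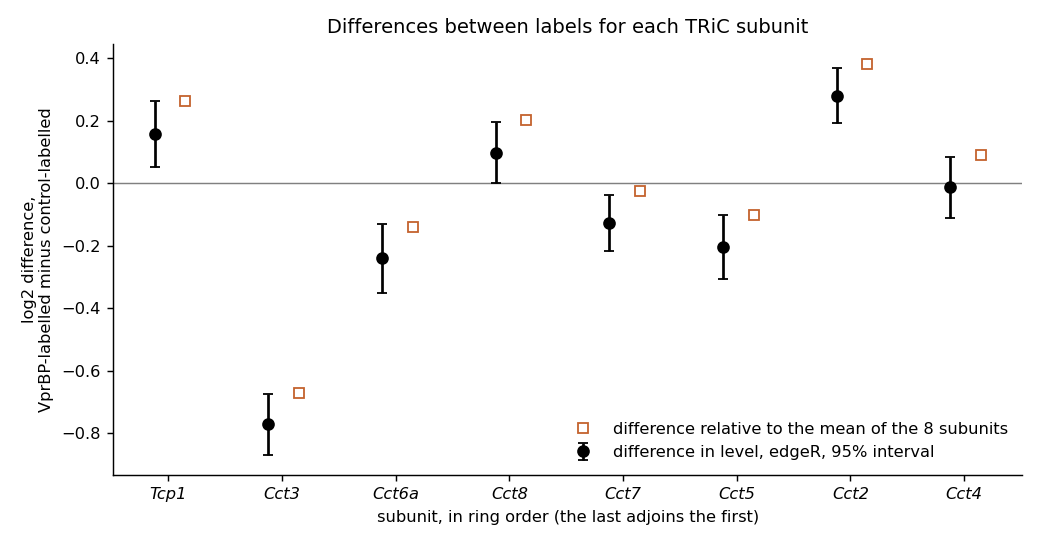
Log2 difference between VprBP-labelled and control-labelled libraries for the subunits in ring order: circles with 95% intervals are the edgeR fit on library-scaled counts, and squares are the difference relative to the mean of the 8 subunits. Cct3 stands at -0.77 and -0.67, and Cct2 at the other end at 0.28 and 0.38.

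Subunit balance was measured as the log2 level of each subunit relative to the mean of the 8 in the same library, so that neither library scaling nor transcript length enters the difference between groups. Cct3 moved from 0.00 ± 0.04 in the control-labelled to -0.67 ± 0.05 in the VprBP-labelled libraries (SD, n = 3 each), a 1.59-fold loss against the mean of all 8, Cct3 included. Cct2 went from 0.45 ± 0.02 to 0.83 ± 0.06, a 1.30-fold gain on the same reference. Tcp1 gained 0.26, Cct8 0.20 and Cct4 0.09 on the log2 scale. Cct6a and Cct5 differed by -0.14 and -0.10. Cct7, with a difference of -0.02, was the only subunit whose relative levels overlapped between groups (two-sided exact permutation test, p = 0.7). For each of the other 7 the same exact test gave p = 0.1, which is the lowest possible with 3 against 3, and 0.114 after Benjamini-Hochberg adjustment over the 8 subunits, so none passes 0.05.

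Because Cct3 is part of that mean, its own fall lifts the other subunits. Measured against the 7 subunits other than Cct3, a reference added after seeing the data, Cct3 differed by -0.77, Cct2 by 0.29, Tcp1 by 0.17, Cct8 by 0.11, Cct4 by -0.01, Cct7 by -0.12, Cct5 by -0.20 and Cct6a by -0.24 on the log2 scale. Cct4 thereby changed sign, and 6 of the 8 subunits had groups that did not overlap. In level, 77.2% of all tested genes had groups that did not overlap, and no such share was computed for relative levels.

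Levels between subunits were compared per kilobase of the longest protein-coding transcript in GENCODE M21. Cct6a has no coding transcript there, although its deposited gene type is protein coding, so its longest transcript of any kind was used. Its rank below, and the ratios of the most to the least abundant subunit by this length, rest on that choice. In the control-labelled libraries the order of CPM per kb was Cct7 (177 ± 3.25), Cct2 (156 ± 2.56), Cct3 (113 ± 2.04), Cct5 (106 ± 1.73), Cct8 (82.5 ± 3.34), Cct4 (80.6 ± 1.76), Tcp1 (70.1 ± 2.9996) and Cct6a (65.0 ± 1.32; SD, n = 3 each). Only the neighbours Cct8 and Cct4 overlapped between libraries. In the VprBP-labelled libraries the order was Cct2 (189 ± 6.32), Cct7 (162 ± 6.82), Cct5 (91.6 ± 4.33), Cct8 (88.3 ± 2.07), Cct4 (79.8 ± 3.22), Tcp1 (78.2 ± 3.53), Cct3 (66.4 ± 2.23) and Cct6a (55.0 ± 3.30). There Cct5 and Cct8 overlapped, as did Cct4 and Tcp1. By this length Cct3 went from rank 3 to rank 7, and Cct2 passed Cct7.

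As a share of the summed CPM per kb, where 8 equal parts would give 12.5% each, Cct3 went from 13.3 ± 0.31% to 8.19 ± 0.27% and Cct2 from 18.3 ± 0.24% to 23.3 ± 0.90%. Cct7 held 20.8 ± 0.47% and 20.0 ± 0.94%. The remaining 5 subunits each shifted by less than 1.5 percentage points, with Tcp1 at 8.24 ± 0.33% and 9.65 ± 0.30% and Cct6a at 7.65 ± 0.17% and 6.79 ± 0.35%. The ratio of Cct2 to Cct3 per kb was 1.42, 1.34 and 1.36 in the control-labelled and 2.75, 3.08 and 2.74 in the VprBP-labelled libraries. The most abundant subunit exceeded the least abundant 2.72 ± 0.04 times in the control-labelled and 3.44 ± 0.17 times in the VprBP-labelled libraries. These ranks depend on the length used. With the union of all exons the ratio was 3.53 and 7.05, with Cct2 highest in both groups, and Cct3 went from rank 7 to rank 8. With coding length, leaving out Cct6a, which has no coding transcript in that release, it was 2.58 and 3.06, Cct3 again went from rank 3 to rank 7, and Cct7 stayed above Cct2 in both groups.

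**Figure D3:**
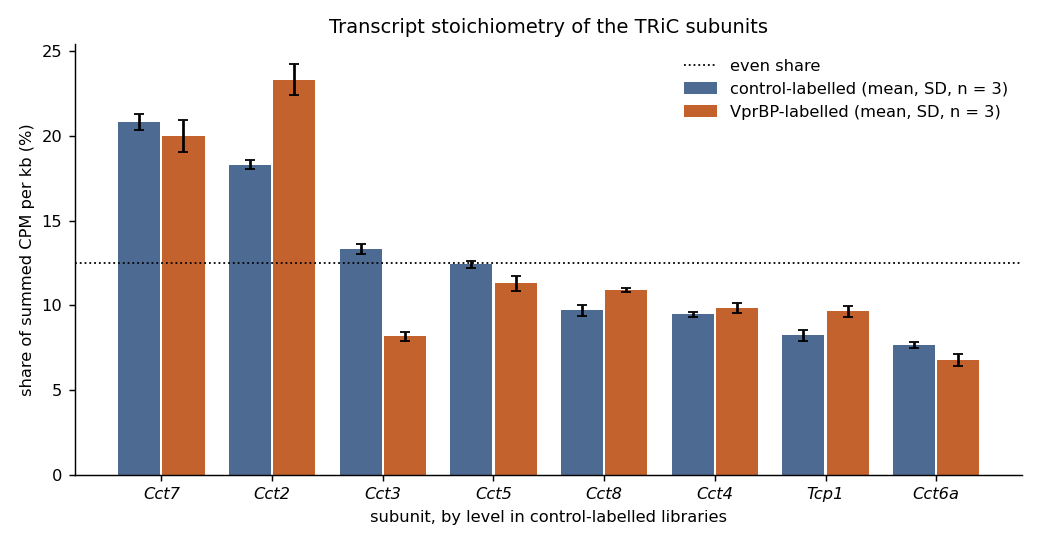
Share of each subunit in the summed CPM per kb of the 8 TRiC subunits, in percent, as bars of mean with SD over 3 libraries per group; the dotted line is the even share of 12.5%. Cct3 drops from 13.3% to 8.19% and Cct2 grows from 18.3% to 23.3%.

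Several subunit genes lie head to head with another gene or overlap one. Where genes overlap, their reads cannot be told apart without a stated strand setting. Atpsckmt (Fam173b in GENCODE M21), a mitochondrial methyltransferase gene that starts 48 bp from Cct5, fell from 26.0 ± 1.72 to 14.997 ± 0.914 CPM (log2 difference -0.79, edgeR adjusted p = 1.06e-06), more than Cct5 itself at -0.20. Psph, a serine synthesis enzyme whose exons overlap those of Cct6a by 452 bp, fell from 53.7 ± 1.36 to 30.2 ± 0.619 CPM (log2 difference -0.83, edgeR adjusted p = 4.01e-09). Mrpl18, a mitochondrial ribosomal protein gene that overlaps the exons of Tcp1 by 141 bp, rose 1.23-fold (edgeR adjusted p = 0.0299). Pradc1, which overlaps the exons of Cct7 by 214 bp, was called higher (1.24-fold, edgeR adjusted p = 0.0188), although Cct7 was called lower. The groups of Pradc1 overlapped. Tsacc, 117 bp from Cct3, was at 0.747 and 0.299 CPM and was not called (edgeR adjusted p = 0.077), and B130034C11Rik near Cct8 was not called either. Usp16 and Acat3 are not head to head with a subunit gene, and start 41170 bp from Cct8 and 24899 bp from Tcp1. Usp16, a deubiquitinase gene that overlaps the exons of Cct8 by 192 bp, fell from 68.7 ± 3.24 to 34.8 ± 2.92 CPM (log2 difference -0.98, edgeR adjusted p = 9.21e-10). Acat3, which overlaps Tcp1 by 571 exonic bases, was not called.

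Copies of the subunits drew few reads. Of 8 pseudogenes similar to a subunit, 3 had a row (Cct3-ps1, Gm12180 and Gm5380), and together they reached at most 14.2 counts in a library. Cct6b, the testis-enriched paralog of Cct6a, was at 1.47 ± 0.40 and 0.961 ± 0.25 CPM and was not called (edgeR adjusted p = 0.21).

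Among the partners that deliver or regulate substrates, prefoldin had 3 of 6 subunits called lower and none higher, where 37.0% of all tested genes were lower and 75.0% were called in either direction. Pfdn4 fell from 15.2 ± 0.768 to 9.65 ± 0.813 CPM (log2 difference -0.66, edgeR adjusted p = 0.000121). Pfdn2 and Pfdn1 fell by 0.40 and 0.22 on the log2 scale (edgeR adjusted p = 0.00461 and 0.0197). Vbp1, Pfdn5 and Pfdn6 were not called, at -0.07, -0.04 and 0.03. The median over the 6 was -0.15, and -0.03 with scaling by library size alone. That scaling, DESeq2 and leaving out control-labelled library 3 or VprBP-labelled library 1 each gave 2 called lower in place of 3. Of the phosducin-like cochaperones, 3 of 4 had a row. Txndc9, known to bind TRiC and to affect the folding of tubulin and actin, fell most. It was at 140.6, 140.1 and 130.9 CPM with the control label and 51.2, 54.7 and 57.7 CPM with the VprBP label, with no overlap, a 2.52-fold fall (edgeR adjusted p = 5.37e-13). Pdcl, which assists the assembly of G protein beta and gamma subunits, rose 1.28-fold (edgeR adjusted p = 0.00215), and Pdcl3 was not called at -0.12.

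Of the 9 measured genes of the prefoldin-like and R2TP group, a related cochaperone system that assembles larger complexes, 2 were called higher and 5 lower, with a median of -0.28. That is 77.8% called, close to the 75.0% of all tested genes. Uxt fell from 17.7 ± 0.895 to 6.38 ± 0.526 CPM (2.77-fold, edgeR adjusted p = 9.99e-09). The ATPase Ruvbl2 fell 1.31-fold and Rpap3 rose 1.54-fold (edgeR adjusted p = 0.000187 and 4.9e-06). Polr2e, a subunit shared by the RNA polymerases, fell 1.32-fold and Pih1d1 1.37-fold (edgeR adjusted p = 3.85e-05 and 0.000507).

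Among the clients, several tubulins rose strongly, and actins went both ways. Of 16 tubulin genes, 10 were called higher and 5 lower, where 37.9% and 37.0% of all tested genes were, and the summed level went from 1216 ± 17.9 to 2981 ± 68.2 CPM. Most of the rise of this sum came from Tubb5 and Tuba1b, the latter at 144 ± 7.06 and 943 ± 42.1 CPM. Tubb5 was at 127.5, 123.8 and 117.7 CPM with the control label and 952, 956 and 943 CPM with the VprBP label, a 7.72-fold rise (edgeR adjusted p = 2.58e-19). Tuba1b rose 6.54-fold and Tubb3, a neuronal beta-tubulin, 6.77-fold, whereas Tuba4a fell 2.26-fold (edgeR adjusted p = 2.43e-18, 4.26e-15 and 3.33e-10). Tubb2b and Tuba1a rose 2.96-fold and 1.68-fold. Tubulins and actins have near-identical relatives and processed copies, which makes single values uncertain. Among the cofactors that assemble tubulin dimers after TRiC, Tbca and Tbcd rose 1.42-fold and 1.81-fold, Tbcb, Tbcc and Tbcel fell 1.499-fold, 1.98-fold and 1.26-fold, and Tbce and Arl2 were not called. The last pair was called higher with scaling by library size alone, which gave 4 of 7 cofactors higher in place of 2. Over all 14641 tested genes, that scaling called 6160 higher in place of 5552.

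Actins and actin-related genes split, with 5 of 13 tested called higher and 6 lower, where 37.9% and 37.0% of all tested genes were. In either direction 84.6% of the list was called, against 75.0% of all tested genes. The median of the list was -0.06, and it became 0.06 with scaling by library size alone. Actb, cytoplasmic beta-actin, rose from 689 ± 13.2 to 1104 ± 62.6 CPM (1.60-fold, edgeR adjusted p = 8.85e-11). Actr3, a core subunit of the actin-nucleating Arp2/3 complex, fell 1.501-fold (edgeR adjusted p = 1.1e-08), and Actr2 of the same complex rose 1.27-fold (edgeR adjusted p = 1.1e-05). Actr10, a subunit of dynactin, fell by 0.59 on the log2 scale (edgeR adjusted p = 3.15e-08). Acta2, the smooth muscle actin, was at 0 counts in all control-labelled libraries and at a mean of 0.677 CPM with the VprBP label, at least 12.1-fold higher against a floor of 3 counts over the group. Of 20 WD40 and other reported clients, 13 were called higher and 3 lower, with a median of 0.32. Of all tested genes, 37.9% were called higher and 37.0% lower. The G protein beta subunit Gnb1 rose from 170 ± 6.86 to 372 ± 7.78 CPM (2.19-fold, edgeR adjusted p = 1.17e-13), and the mitotic activator Cdc20 from 2.02 ± 0.318 to 19.7 ± 2.32 CPM (9.77-fold, edgeR adjusted p = 4.62e-12). Stat3 and the mitotic kinase Plk1 rose 2.88-fold and 14.7-fold, the cyclin Ccne1 rose 2.81-fold, and Strap fell 1.25-fold.

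**Figure D4:**
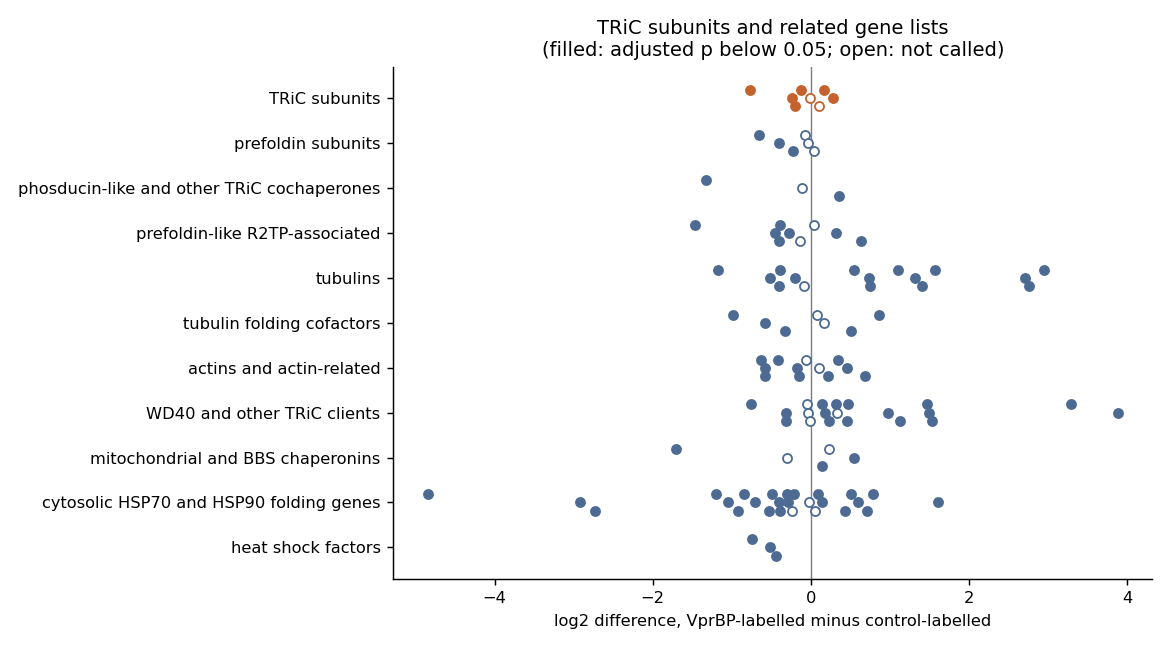
Log2 difference (edgeR, VprBP-labelled minus control-labelled) of every tested member of TRiC and of the partner, client and chaperone lists, 1 point per gene, with Acta2 left out because a group had no counts. The TRiC subunits lie between -0.77 and 0.28, while tubulins reach 2.95 and the HSP70 and HSP90 group reaches down to -4.84.

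Larger changes than in TRiC were measured for several other chaperones. The heat shock factors Hsf1, Hsf2 and Hsf4 all fell, by 0.52, 0.44 and 0.75 on the log2 scale (edgeR adjusted p = 3.93e-06, 4.19e-05 and 3.79e-05), so 3 of 3 were called lower, where 37.0% of all tested genes were. Of 26 measured HSP70 and HSP90 folding genes, 15 were called lower and 8 higher, where 37.0% and 37.9% of all tested genes were, with a median of -0.30. Hsph1, an exchange factor of HSP70, fell from 367 ± 5.57 to 48.5 ± 1.95 CPM (7.57-fold, edgeR adjusted p = 1.39e-18), and Dnajb1 from 175 ± 12.6 to 26.3 ± 1.47 CPM (6.64-fold, edgeR adjusted p = 1.62e-16). Hspa1b, a stress-inducible HSP70 with a near-identical copy in Hspa1a that makes its value uncertain, fell 28.7-fold (edgeR adjusted p = 3.56e-18). Hsp90aa1, the stress-inducible HSP90, fell 2.07-fold, the HSP70 cofactor Bag3 fell 2.31-fold, and Fkbp5 rose 3.03-fold. Hspa8, the constitutive HSP70, which was added after its values were seen, was at 1736 ± 78.1 and 1791 ± 82.1 CPM and was not called (edgeR adjusted p = 0.346).

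The mitochondrial chaperonin is built from Hspd1 (HSP60) and its lid Hspe1 (HSP10), whose genes share a bidirectional promoter. Hspe1 fell from 220.6 ± 14.97 to 67.4 ± 0.333 CPM (3.27-fold, edgeR adjusted p = 6.71e-15). Hspd1 was called higher by 1.10-fold (374.5 ± 14.1 and 413 ± 21.5 CPM, edgeR adjusted p = 0.0115), with overlapping groups. Of the chaperonin-like genes of the Bardet-Biedl group, which assist assembly of a ciliary complex, Bbs10 rose 1.45-fold (edgeR adjusted p = 0.00261), and Mkks and Bbs12 were not called.

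The genes whose pattern over the 6 libraries was most like the mean of the 8 subunits were Eif3k, Snx1, Ppm1g, Pnpla8 and Zc3h18, out of 9417 protein-coding genes averaging 10 CPM or more. Their root mean square distance in centred log2 CPM was 0.016 to 0.021, and their log2 differences were -0.12 to -0.09. Only Ppm1g of them was called (edgeR adjusted p = 0.0392). The mean pattern they match averages subunits that moved in opposite directions, and each subunit is itself part of that mean. On the same measure Cct7 (0.049) and Cct4 (0.053) were the subunits nearest to their own mean pattern, followed by Cct5 (0.061), Cct6a (0.084), Cct8 (0.105), Tcp1 (0.136) and Cct2 (0.195). Cct3 was the farthest at 0.337, and 54.7% of the candidate genes lay nearer to the mean of the subunits than Cct3 did.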

How the data were processed

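The table deposited by the authors holds estimated counts of each gene, for which the submitters' processing notes name Partek and mm10 (GRCm38). For aligner, annotation and strand the sources used here name nothing. Whole numbers (within 0.001) made up 62.1 to 64.5% of the values. Of 18908 gene IDs, 18501 matched GENCODE M21. Counts were rounded and fitted over the whole table in R 4.3.3 with edgeR 4.0.16 (quasi-likelihood F test, TMM scaling, filterByExpr, group as the only term). The fit tested 14641 genes with Benjamini-Hochberg adjustment, and a call is an adjusted p below 0.05. The script was tested on simulated data in which far fewer genes changed than were called here. That test does not cover scaling where most genes differ. DESeq2 1.42.0, other scalings and filters, and leaving out each library were alternatives.

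Subunit balance and shares came from TMM-scaled CPM. Named genes were all subunits, their copies and neighbours, all prefoldin, cochaperone, cofactor, chaperonin and heat shock factor genes, up to 5 members of the other lists by smallest p with a member for the other direction, and the 5 genes most alike. Hspa8 and the marker genes given singly were added outside this rule, after their values were seen. Members and lists were chosen with earlier results of these data known. Replicates differed in depth, from 16839445 to 21838875 counts, which limits the precision of low genes most. Promoter windows and motifs were read from RefSeq.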

Additional observations from a re-analysis of the deposited data

How the results depend on the processing

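Cct2, Cct3 and Cct6a kept their direction and call under all 15 alternatives run. With scaling by library size alone, 2 subunits in place of 4 were called lower, 56.6% in place of 50.6% of all calls were in the higher direction, and Dcaf1 was at -0.12 and not called; that scaling moved the median of all genes by 0.12. Leaving out 1 library at a time gave 1 to 3 subunits higher (1 without control-labelled library 3) and 3 to 4 lower (3 without VprBP-labelled library 2). Cct4, which was not called under any setting, changed sign with library size alone (0.10), with no filter (0.000948), and in DESeq2 (0.000500), and it lay between -0.0372 and 0.0226 when 1 library was left out, positive only without VprBP-labelled library 2. Its relative level became -0.00629 against the 7 other subunits, for a main value of 0.09. The ratio of most to least abundant subunit in control-labelled libraries was 3.53 by exon union and 2.58 by coding length. Over all genes, calls ranged from 10632 to 11605. Same-numbered libraries did not deviate together (correlations -0.032, 0.007 and -0.042), so no pairing by number was detected. With 3 libraries per group, these correlations cannot show that the libraries were not prepared in pairs. A fit with the replicate block called 10649 genes in place of 10974, and 2 subunits higher and 4 lower. Depth was no limit for the subunits, each with at least 2332 counts per library, but was for Tsacc, B130034C11Rik, Acat3 and Cct6b.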
